A study of Rattus norvegicus with 11 samples.

Results

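The Toll-like receptor (TLR) genes Tlr2, Tlr3, Tlr4, Tlr5, Tlr6, Tlr7 and Tlr9, the co-receptor gene Cd14 and the adaptor gene Myd88 were examined in the trigeminal ganglia (TRG) of rats with orofacial inflammation. Probes were chosen by the RefSeq accession they carry. This gave 8 of the 9 genes, each with 1 probe, among 13903 genes with a symbol and 24684 probes in all, and Tlr9 was not analysed here. The ganglia came from male Wistar rats 7 days after 50 μl of complete Freund's adjuvant (CFA, killed mycobacteria in paraffin oil, 1 mg/ml) was injected under the skin of the whisker pad on 1 side. The CFA group was the ganglion of the injected side (6 arrays, rats 1, 2, 3, 5, 6 and 8), and the contralateral group was the uninjected side of the same animals (5 arrays, rats 1, 2, 3, 5 and 6). The controls are therefore not untreated animals, since every rat carried an inflamed whisker pad. Whole ganglia were measured, 1 array for each, on a single-colour Arraystar array of mRNA and long non-coding RNA probes. In bulk tissue of this kind fewer cells of a type and less RNA per cell cannot be told apart.

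Toll-like receptors are membrane proteins that recognise conserved microbial molecules through leucine-rich repeats and signal through a cytosolic TIR domain. Tlr2, paired with Tlr1 or Tlr6, binds the lipoproteins of bacteria, mycobacteria among them, and Tlr4 binds lipopolysaccharide with the help of Cd14 and Ly96 (MD-2). Tlr5 recognises flagellin, and Tlr3, Tlr7 and Tlr9 recognise nucleic acids in endosomes. All of them except Tlr3 signal through Myd88, which recruits the IRAK kinases and leads to NF-kB, AP-1 and the transcription of cytokines. In sensory ganglia these receptors are known from macrophages and have also been described in sensory neurons and glia.

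The promoters of the genes are a place where these factors can act, so the 250 bases before each start in the RefSeq promoter table (rat build GRCr8) were searched on both strands for NF-kB (GGGANTTNCC), PU.1 (GAGGAAGT), an interferon-stimulated response element (ISRE, GAAANNGAAA) and AP-1 (TGANTCA). Of the 8 genes with a probe, Tlr2 and Myd88 held a match and are shown for that reason, in the direction of the gene, with the matched letters in capitals. The window of Tlr2 is chr2:171504558-171504807 and that of Myd88 is chr8:127956231-127956480, both on the minus strand.
Tlr2: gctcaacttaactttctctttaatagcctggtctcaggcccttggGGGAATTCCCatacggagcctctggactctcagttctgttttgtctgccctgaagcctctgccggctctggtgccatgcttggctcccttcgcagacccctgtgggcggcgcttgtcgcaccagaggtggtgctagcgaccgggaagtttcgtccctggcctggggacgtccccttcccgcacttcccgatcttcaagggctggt
Myd88: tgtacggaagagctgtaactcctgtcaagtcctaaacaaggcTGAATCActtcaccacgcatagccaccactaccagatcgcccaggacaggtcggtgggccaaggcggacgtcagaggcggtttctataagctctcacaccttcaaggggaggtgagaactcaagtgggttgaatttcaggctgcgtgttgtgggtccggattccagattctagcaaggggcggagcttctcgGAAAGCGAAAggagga
In Tlr2 the capitals are an NF-kB match from 205 to 196 bases before the start, whose letters read the same on both strands. Distances are counted from the start in the promoter table, which for Tlr2, Tlr5, Tlr7 and Cd14 differs from the gene bound in the RefSeq gene table. In Myd88 they are an AP-1 match from 208 to 202 bases and an ISRE match from 16 to 7 bases before the start. Of 33469 rat promoters of this length 0.974% held the NF-kB letters, 2.04% those of PU.1, 3.41% those of the ISRE and 6.34% those of AP-1. A match describes letters and shows no binding. No match was found in the windows of Tlr3, Tlr4, Tlr5, Tlr6, Tlr7 and Cd14, which says only that these letters are not there.

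Levels are given as the normalised log2 signal, that is the log2 of the scanner's background-subtracted intensity after quantile normalisation across the 11 arrays. This scale serves to compare 1 probe between arrays and not 1 probe with another. The median signal before normalisation was 74.6 to 117 on the CFA arrays and 87.9 to 96.4 on the contralateral arrays, and 68.9% to 82.3% of spots on CFA arrays and 71.6% to 82.8% on contralateral arrays were well above background. Of the 13 sensory neuron markers 11 were measured, and all 11 were well above background on every array. Arrays with 1 scan time were taken as 1 slide, which gave 5 slides. Both groups met on slide 2 alone, with CFA rat 1 beside contralateral rats 5 and 6. Slides 4 (rats 2 and 3) and 5 (rats 5, 6 and 8) held CFA arrays, and slides 1 (rat 3) and 3 (rats 1 and 2) contralateral arrays. Slides 1, 2 and 3 were scanned on day 1, slide 4 on day 2 and slide 5 on day 3. A difference fitted with the slide or the scan day as a fixed block therefore rests on CFA rat 1 as its only CFA array. The summed level of 7 anterior pituitary genes was between 4230 and 308000 in CFA ganglia and between 2860 and 107000 in contralateral ganglia.

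None of the 8 genes passed the study's threshold, an unadjusted p of 0.05 or less in limma with an absolute fold change over 2, on the CFA side of the TRG on day 7. Over all probes 496 passed it (2.01%), of those well above background on all arrays 0.794% did, and none of the 24684 passed an adjusted p of 0.05. At an unadjusted p of 0.05 or less without a limit on the fold, 1 of the 8 genes passed, Myd88, beside 2713 of all probes (11%) and 9.08% of the 17512 probes well above background on all arrays. The CFA and contralateral arrays overlapped for all 8 genes, whereas 1.19% of all probes did not overlap. The probes of 7 genes were well above background on all 11 arrays and that of Tlr5 on none. The median absolute log2 change of these 7 genes was 0.14, against 0.15 over the 17512 probes. In the fit without a block, which treats the arrays as independent, the 95% confidence interval of each of the 7 lay within a 2-fold change. This does not hold as a bound for other models. With CFA rat 1 as the only CFA array behind the difference, the slide as a fixed block gave -0.76 for Tlr3. The scan day as a block gave -0.84 for Cd14.

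**Figure D1:**
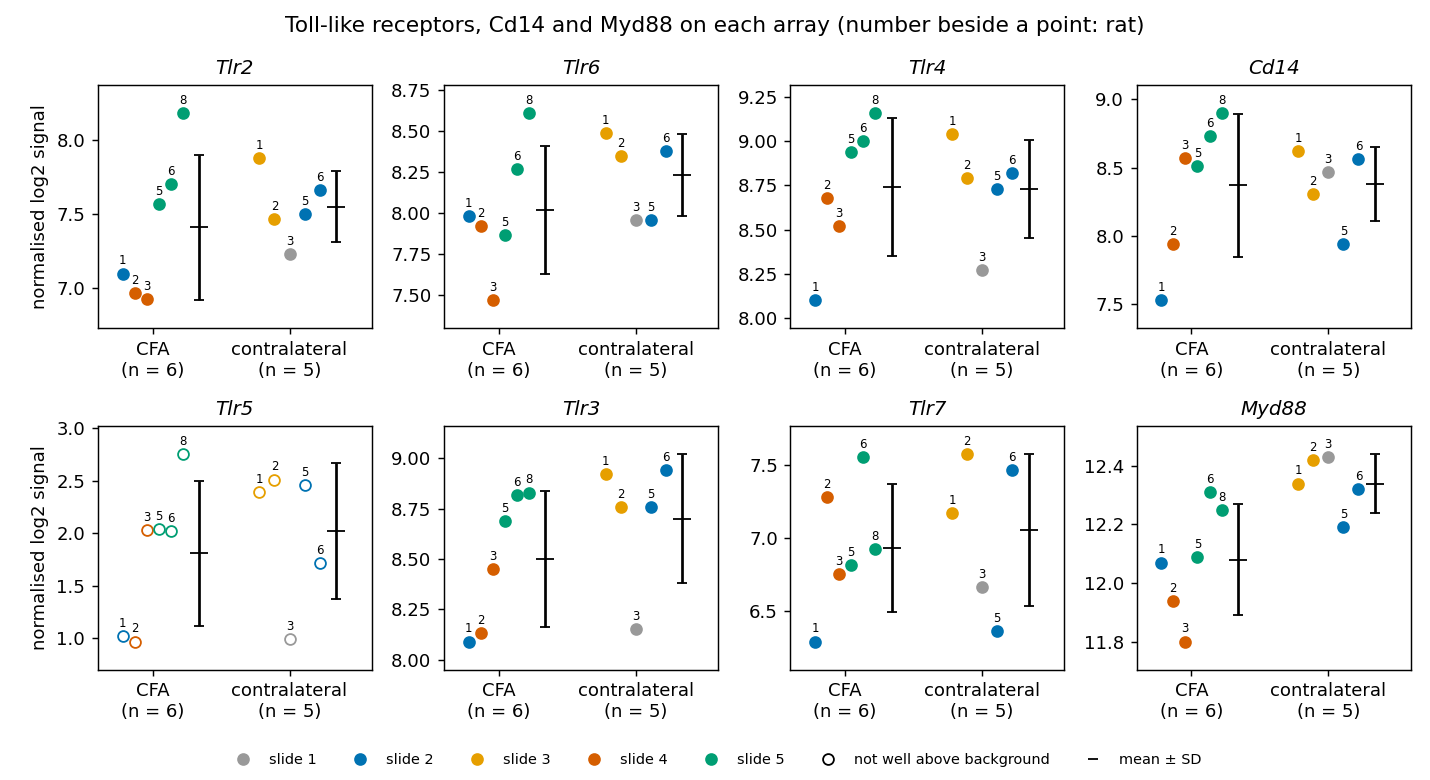
Normalised log2 signal of the 8 genes on each array, with the CFA arrays left of the contralateral arrays in each panel, coloured by slide and numbered by rat, and bars for the mean ± SD (n = 6 and n = 5). The groups overlap in every panel, and for Tlr2 the CFA arrays span 6.93 to 8.18, a range that holds all 5 contralateral arrays.

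Tlr2, the receptor of lipoproteins, had its lowest CFA value at 6.93 (rat 3), a median of 7.33 and its highest at 8.18 (rat 8). The contralateral arrays of rats 1, 2, 3, 5 and 6 had 7.88, 7.47, 7.23, 7.50 and 7.66. The 3 lowest of the 11 arrays and the highest one were CFA arrays, so the CFA values lay on both sides of the contralateral ones. The means were 7.41 ± 0.49 in CFA ganglia and 7.55 ± 0.24 in contralateral ganglia (SD, n = 6 and n = 5). The log2 change was -0.14 (SE 0.23, limma adjusted p = 0.807, two-sided exact permutation p = 0.569), and its 95% interval of 0.64- to 1.29-fold holds no change.

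Tlr6, the partner of Tlr2 for diacylated lipoproteins, ran from 7.47 (rat 3) over a median of 7.95 to 8.61 (rat 8) on the CFA arrays. Contralateral ganglia of rats 1, 2, 3, 5 and 6 had 8.49, 8.35, 7.96, 7.96 and 8.38. In all 5 rats with both sides the CFA value was the lower one, by 0.51, 0.43, 0.49, 0.10 and 0.11 on the log2 scale, while rat 8, which has no contralateral array, had the highest value of all. How many of all probes had 5 of 5 rats in 1 direction was not counted. Without regard to the rat the log2 change was -0.21 (SE 0.19, limma adjusted p = 0.659, exact permutation p = 0.323, interval 0.643- to 1.16-fold). With the rat as a block it was -0.33 (unadjusted p = 0.0275, limma adjusted p = 0.472), a difference to which rat 8 adds nothing. Without CFA rat 8 and with no block it was also -0.33 (limma unadjusted p = 0.0773).

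Tlr4, the receptor of lipopolysaccharide, had almost the same mean in the groups, 8.74 ± 0.39 in CFA and 8.73 ± 0.28 in contralateral ganglia (SD, n = 6 and n = 5). The CFA arrays lay between 8.10 (rat 1) and 9.16 (rat 8) with a median of 8.81. The contralateral arrays had 9.04, 8.79, 8.27, 8.73 and 8.82 in rats 1, 2, 3, 5 and 6. CFA rat 1 was the lowest of the 11 arrays, contralateral rat 3 came next, and the 2 sides overlapped over most of their range. The log2 change was 0.01 (SE 0.20, limma adjusted p = 0.991, exact permutation p = 0.978, interval 0.742- to 1.36-fold). Within slide 2 the CFA array lay 0.67 below the mean of the contralateral arrays, and the fit with the slide as a fixed block, which rests on those 3 arrays for the difference, gave -0.67 (unadjusted p = 0.00494, limma adjusted p = 0.361).

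Cd14 binds lipopolysaccharide and passes it to Tlr4, and also serves Tlr2. Its signal had a lowest value of 7.53 (rat 1), a median of 8.54 and a highest value of 8.90 (rat 8) in CFA ganglia. In contralateral ganglia it was 8.62, 8.31, 8.47, 7.94 and 8.56 in rats 1, 2, 3, 5 and 6. CFA rat 1 stood lowest, and CFA rat 2 and contralateral rat 5 followed with equal values of 7.94, so low arrays occurred in both groups. The difference of the sides ran from -1.09 in rat 1 to 0.57 in rat 5, and was above 0 in 3 of 5 rats. The log2 change was -0.01 (SE 0.24, limma adjusted p = 0.985, exact permutation p = 0.963, interval 0.682- to 1.44-fold). With the scan day as a block it was -0.84, a difference that rests on CFA rat 1, the lowest array, against the contralateral arrays.

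Tlr5, the flagellin receptor, was not well above background on any of the 11 arrays. Its values spanned 0.97 to 2.75 in CFA ganglia and 0.99 to 2.51 in contralateral ganglia, and no fold change is given.

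Among the endosomal receptors, Tlr3 (double-stranded RNA) ranged from 8.09 (rat 1) to 8.83 (rat 8) with a median of 8.57 in CFA ganglia. Contralateral ganglia had 8.92, 8.76, 8.15, 8.76 and 8.94 in rats 1, 2, 3, 5 and 6, and the value of rat 3 lay well below the other 4. The CFA side was the lower one in 4 of 5 rats. The log2 change was -0.20 (SE 0.19, limma adjusted p = 0.667, exact permutation p = 0.318, interval 0.65- to 1.16-fold), and without contralateral rat 3 it was -0.34 (limma adjusted p = 0.645). Within slide 2 the CFA array was 0.76 below the contralateral mean, and the slide as a fixed block gave an unadjusted p of 0.00362 (limma adjusted p = 0.318).

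Tlr7 senses single-stranded RNA. Its CFA arrays lay between 6.29 (rat 1) and 7.55 (rat 6) with a median of 6.86. Its contralateral arrays had 7.17, 7.57, 6.66, 6.36 and 7.46 in rats 1, 2, 3, 5 and 6, nearly the same range. The log2 change of -0.11 (SE 0.27) had the widest interval of the 7 detected genes, 0.613- to 1.39-fold (limma adjusted p = 0.868, exact permutation p = 0.693).

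Myd88, the adaptor, had the smallest spread between arrays. Its CFA values ran from 11.80 (rat 3) over a median of 12.08 to 12.31 (rat 6). Its contralateral values were 12.34, 12.42, 12.43, 12.19 and 12.32 in rats 1, 2, 3, 5 and 6. The 4 highest of the 11 arrays were contralateral and the 4 lowest were CFA arrays, with CFA rats 6 and 8 and contralateral rat 5 in between. The mean was 12.08 ± 0.19 in CFA and 12.34 ± 0.10 in contralateral ganglia (SD, n = 6 and n = 5), a log2 change of -0.26 (SE 0.10) or 0.834-fold, with an interval of 0.711- to 0.977-fold. The unadjusted p was 0.0287 in limma and 0.0238 in the exact permutation test, whose smallest possible p is 0.00216, and the limma adjusted p over all probes was 0.43. In each of the 5 rats the CFA side was the lower one, by 0.26, 0.48, 0.63, 0.09 and 0.01 in rats 1, 2, 3, 5 and 6. The share of all probes with such a pattern was not counted. With the rat as a replicate block the log2 change was -0.30 and the unadjusted p was 0.059 (limma adjusted p = 0.501), and with the slide as a fixed block it was -0.18 (unadjusted p = 0.244). Without CFA rat 2, CFA rat 3, contralateral rat 2 or contralateral rat 3 the unadjusted limma p was 0.0578, 0.0529, 0.0624 and 0.0626.

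**Figure D2:**
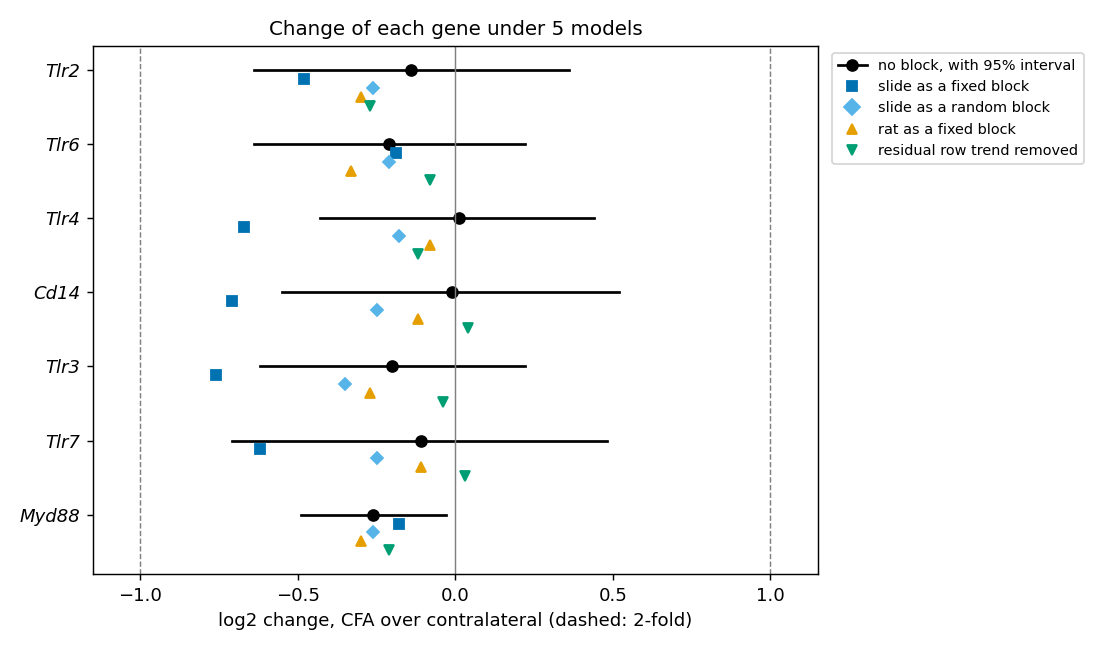
Log2 change of CFA over contralateral for the 7 detected genes, as a point with its 95% interval from the fit without a block, and as symbols for the fits with the slide or the rat as a block and with the residual trend over the rows of the array removed. All values lie within the dashed lines of a 2-fold change, and the slide as a fixed block moves Tlr4 to -0.67 and Tlr3 to -0.76 but Myd88 to -0.18.

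On several arrays most of the 7 detected genes lay on the same side of their means, but not on all arrays. On contralateral rat 3 the deviation was 0.23 for Myd88 and 0.10 for Cd14, but -0.46 for Tlr4 and -0.44 for Tlr3. On the CFA array of rat 1 none of the 7 was above its own mean over the 11 arrays, and 4 of them had their lowest value there. In CFA rats 2 and 3 only 1 of 7 was above its mean, and 3 genes had their lowest value in rat 3. The CFA array of rat 6 had 7 of 7 above the mean and that of rat 8 had 6 of 7, with the highest value of 4 genes in rat 8. The contralateral arrays of rats 1 and 6 had 7 of 7 above the mean, that of rat 2 had 6, and those of rats 3 and 5 had 2. The mean deviation of the 7 genes was -0.47, -0.23, -0.28, 0.00, 0.27 and 0.34 in the CFA ganglia of rats 1, 2, 3, 5, 6 and 8. It was 0.28, 0.17, -0.19, -0.15 and 0.24 in the contralateral ganglia of rats 1, 2, 3, 5 and 6. High and low arrays thus occurred on both sides of the animals. By slide it was -0.26 on slide 4 and 0.21 on slide 5 for CFA arrays, and -0.19 on slide 1 and 0.23 on slide 3 for contralateral arrays, so slides of the same group differed by more than the groups did. Within slide 2 the single CFA array lay below the mean of the contralateral arrays for all 7 genes, by 0.76 for Tlr3, 0.71 for Cd14, 0.67 for Tlr4, 0.62 for Tlr7, 0.48 for Tlr2, 0.19 for Tlr6 and 0.18 for Myd88.

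**Figure D3:**
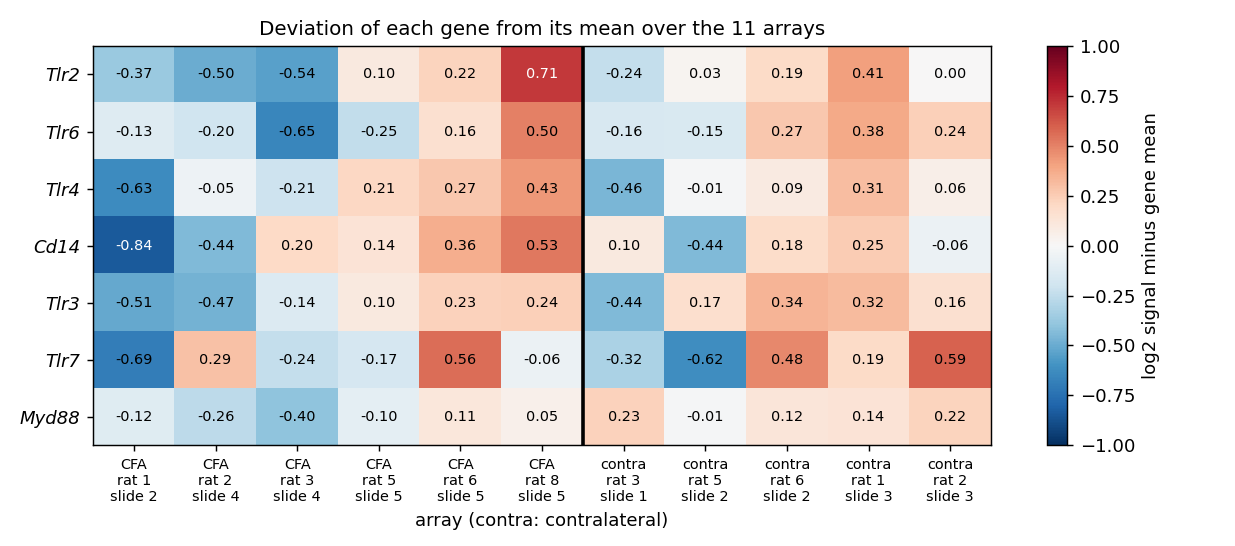
Deviation of each detected gene (rows) from its own mean over the 11 arrays, in log2 units, with the CFA arrays left of the line and the contralateral arrays right of it, ordered by slide. The CFA columns of slide 5 are mostly above 0 and those of slide 4 mostly below, with mean deviations of 0.21 and -0.26.

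Macrophages are a main source of these transcripts in many tissues, so their markers are given beside them. Of 13 macrophage markers all 13 were measured, 11 were well above background on every array, Cd163 was so on none, and none passed the study's threshold. Their median log2 change was -0.14 and their summed level was 97800 to 149000 on the CFA arrays and 101000 to 139000 on the contralateral arrays. The mean deviation of these markers was lowest on the CFA array of rat 1 (-0.32), which was also the lowest for the 7 genes, and highest on the contralateral array of rat 6 (0.34), where all 7 genes were above their means. In CFA rats 2 and 5 the macrophage markers stood at 0.09 and -0.12 while the 7 genes stood at -0.23 and 0.00. Markers of another cell type also moved with the 7 genes on several arrays. The 2 endothelial markers well above background on every array stood at 0.33 and 0.27 in contralateral rats 1 and 6. They stood at -0.14 and -0.31 in CFA rats 1 and 3, but at 0.00 in CFA rat 8, where the 7 genes stood at 0.34. The part of macrophage or endothelial cell number in the levels was not tested.

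Position on the array is a measured property that moved with the calls over all probes. When the probes with 1 spot were ordered by row and split into 4 parts, 180 probes passed the threshold as higher and 0 as lower in the first part, which holds Tlr2 and Tlr4, and 8 as higher and 153 as lower in the last, which holds Tlr7. Tlr5, Cd14 and Myd88 lay in the part with 36 higher and 15 lower, and Tlr3 and Tlr6 in that with 2 higher and 10 lower. With the residual trend over rows removed, the log2 change was -0.27 for Tlr2, -0.12 for Tlr4, 0.04 for Cd14, -0.04 for Tlr3, -0.08 for Tlr6, 0.03 for Tlr7 and -0.21 for Myd88 (unadjusted p = 0.0688 for Myd88).

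The other genes of the pathway were taken from a list of 85, of which 64 were measured and 52 were well above background on all arrays. Of the 64, 0 were higher and 1 was lower past the study's threshold (1.56%, beside 1.14% higher and 0.867% lower over all probes), and 0 passed an adjusted p of 0.05 in limma. The median log2 change was -0.04, against -0.05 over all probes. At an unadjusted p of 0.05 or less there were 5 of the 64 genes, 0 of them higher, a smaller share than the 11% of all probes and the 9.08% of probes well above background on all arrays. Of these, Il12b, Cd180, Il1rl1 and Il10 lay in the last part of the rows, where 8 probes passed the threshold as higher and 153 as lower. Ticam2 lay in the part with 2 higher and 10 lower. With the residual trend over rows removed, Il12b was at -1.08 and still past the threshold, and that fit is not given for the rest. The part of row position in the direction of the 5 genes was not tested further. Il12b and Sod2 were named by a rule on p and fold, and the other genes of the list that are named here were chosen after their values were seen.

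Il12b, which encodes the p40 subunit of interleukin-12 and interleukin-23, was the 1 gene past the threshold. Its CFA arrays had a lowest value of 2.57 (rat 2, not well above background), a median of 4.11 and a highest value of 4.84 (rat 1). Its contralateral arrays had 5.38, 5.23, 5.56, 5.05 and 4.65 in rats 1, 2, 3, 5 and 6, all well above background. Only contralateral rat 6 lay within the CFA range. The log2 change was -1.19 (SE 0.39, limma adjusted p = 0.387, exact permutation p = 0.0195), with a lower CFA value in all 5 rats. With the residual trend over rows removed it was -1.08 (limma adjusted p = 0.427) and still past the threshold. Without CFA rat 2 it was -0.90, under the fold limit, within slide 2 it was -0.01, and with normexp background correction it was -0.29. It was also no longer past the threshold with the slide as a random block (-0.88) or the scan day as a block (-0.33), each with a limma adjusted p of 0.948.

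Among the co-receptors and chaperones 9 of 13 were measured and none passed, with a median log2 change of -0.15. Ly96, the partner of Tlr4, had a log2 change of 0.00 (SE 0.21, limma adjusted p = 0.998), and Lbp, which carries lipopolysaccharide to Cd14, one of -0.32 (SE 0.17, limma adjusted p = 0.483). Cd180, a Toll-like receptor relative best known from B cells, averaged 7.60 ± 0.18 in CFA and 8.24 ± 0.54 in contralateral ganglia (SD, n = 6 and n = 5). Its log2 change was -0.64 (unadjusted p = 0.0142, limma adjusted p = 0.396), and -0.17 within slide 2. The CFA side was the lower one in all 5 rats, though in rat 5 the values were 7.49 and 7.50.

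Of the adaptors and kinases 15 of 20 were measured and none passed (median log2 change -0.02). Irak4, the first kinase recruited by Myd88, averaged 8.73 ± 0.15 in CFA and 8.93 ± 0.14 in contralateral ganglia (SD, n = 6 and n = 5), with a log2 change of -0.20 (limma adjusted p = 0.48) and a lower CFA value in 5 of 5 rats, and lay 0.11 higher in CFA within slide 2. Ticam2, the bridging adaptor between Tlr4 and Ticam1, had a log2 change of -0.43 (unadjusted p = 0.037, limma adjusted p = 0.442), and within slide 2 one of 0.24. Irak1, Irak2 and Traf6, which act after Irak4, had log2 changes of 0.13, -0.15 and -0.14 (limma adjusted p = 0.691, 0.674 and 0.682).

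Of the inhibitors 7 of 9 were measured and none passed (median -0.01), Tollip with a log2 change of -0.01 and Nfkbia with one of -0.09. Il1rl1, the interleukin-33 receptor, had a log2 change of -0.71 (unadjusted p = 0.045, limma adjusted p = 0.45). Of the transcription factors 8 of 11 were measured and none passed (median -0.05). Irf5, a factor downstream of Myd88, averaged 8.61 ± 0.32 in CFA and 8.92 ± 0.11 in contralateral ganglia (SD, n = 6 and n = 5) and was lower on the CFA side in 5 of 5 rats (log2 change -0.31, limma adjusted p = 0.466). Irf8, a factor of the macrophage lineage, had a log2 change of 0.96 (limma adjusted p = 0.477). It passed the threshold only without contralateral rat 5 (1.25, limma adjusted p = 0.305) or contralateral rat 6 (1.22, limma adjusted p = 0.29). The lowest Irf8 values were on slide 3, at 3.72 in contralateral rat 1 and 2.28 in rat 2 (not well above background). Contralateral rats 5 and 6 had 5.39 and 5.26, and the CFA arrays 4.90 to 5.50. Within slide 2 the Irf8 change was 0.17, and its probe lay in the part of the rows with 180 higher and 0 lower.

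Of the target genes 17 of 18 were measured, with 0 higher and 1 lower (Il12b) and a median of -0.01. Sod2, a mitochondrial superoxide dismutase induced by NF-kB, had the smallest p among the genes with a positive change, with 13.46 ± 0.18 in CFA and 13.19 ± 0.26 in contralateral ganglia (SD, n = 6 and n = 5) and a log2 change of 0.27 (SE 0.13, limma adjusted p = 0.477). With the residual trend over rows removed, Sod2 was at 0.42 (limma adjusted p = 0.402). The cytokine gene Tnf had a log2 change of -0.26 (SE 0.24, limma adjusted p = 0.669), with a lower CFA value in 5 of 5 rats. Il10, an anti-inflammatory cytokine, had one of -0.46 (unadjusted p = 0.0343, limma adjusted p = 0.44) and of 0.25 within slide 2. The chemokine gene Ccl4 had a higher CFA value in 5 of 5 rats (log2 change 0.40, limma adjusted p = 0.594), and a change of -0.60 within slide 2. Of the pathway list, Ikbkb and Il1rl1 also had a lower CFA value in 5 of 5 rats. The share of all probes with 5 of 5 rats in 1 direction was not counted. For 3 genes of acute inflammation 1 array stood far from the rest, the CFA array of rat 8. Il1b, the interleukin-1β gene, was at 11.82 there, against 7.86 to 9.52 on the other CFA arrays and 8.62 to 9.49 on the contralateral arrays. The chemokine Cxcl2 was at 11.70 there, against 5.03 to 6.69 on the other CFA arrays and 5.50 to 6.71 on the contralateral arrays, and Ccl3 was at 10.84, against 7.10 to 8.09 on the other CFA arrays and 7.48 to 8.59 on the contralateral arrays. Their log2 changes were 0.08, 0.47 and 0.15 (limma adjusted p = 0.96, 0.864 and 0.926). Ifnb1 and Ptgs2 were not well above background on any array. Of the other sensors of mycobacteria 8 of 14 were measured and none passed (median -0.14).

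**Figure D4:**
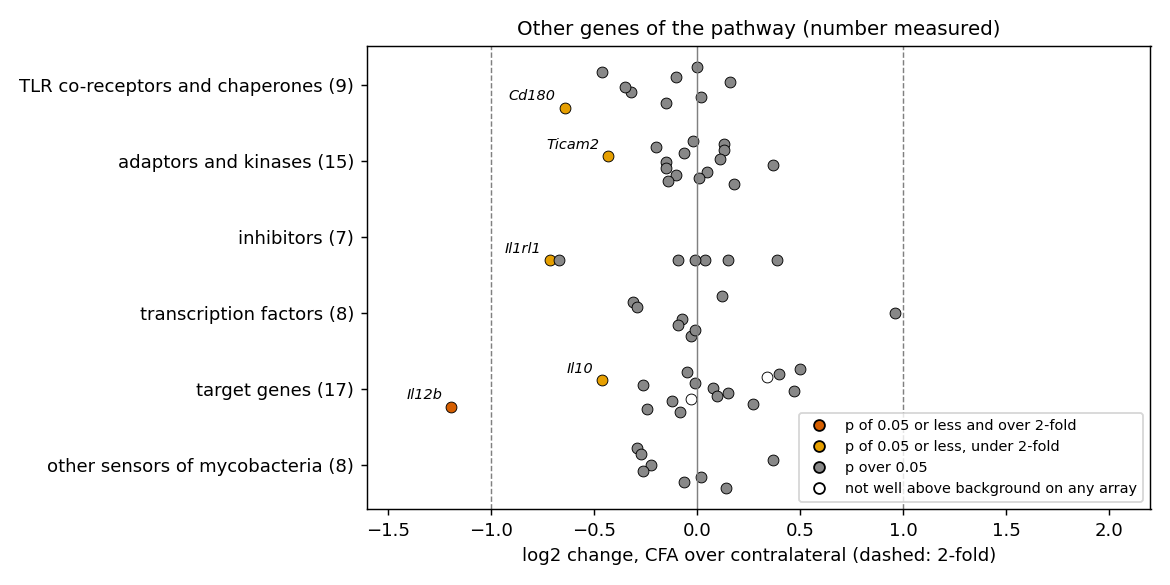
Log2 change of CFA over contralateral for the 64 measured genes of the pathway list, by role, with dashed lines at a 2-fold change and the 5 genes with an unadjusted p of 0.05 or less named. All 5 lie left of 0, a smaller share of the genes than the 11% of all probes with such a p, and Il12b at -1.19 is the 1 beyond the dashed lines. Il12b, Cd180, Il1rl1 and Il10 lay in the last part of the array rows, where 8 probes passed the threshold as higher and 153 as lower. With the residual trend over rows removed, Il12b was at -1.08.

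For each detected gene the 3 named genes with the most similar pattern (2 are given for Myd88) were found among 11441 probes that carry a gene symbol and were well above background on all 11 arrays, by Pearson's r of the normalised log2 signal over the 11 arrays. They were Hic2, Hprt1 and Tp53inp1 for Tlr2 (r of 0.948, 0.924 and 0.92), Frk, Zc3h12a and Chmp4c for Tlr6 (0.949, 0.943 and 0.936) and Bcl10, Tgif1 and Etaa1 for Tlr4 (0.937, 0.932 and 0.928). For Cd14 they were Cpox, Dab2 and Ets1 (0.952, 0.937 and 0.932), for Tlr3 Egfr, Carf and Npr3 (0.929, 0.926 and 0.922), for Tlr7 Ms4a6bl1, Ctla2a and Ptpn18 (0.942, 0.942 and 0.935), and for Myd88 Heph and Slc2a5 (0.946 and 0.938). Without the 2 arrays farthest from the median of the gene, r lay between 0.783 (Tgif1 with Tlr4) and 0.936 (Npr3 with Tlr3). The points share slides and the best of many candidates were taken, so the values are a description.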

How the data were processed

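RNA of 11 TRGs (6 CFA, 5 contralateral) was analysed, grouped by the sample labels. The authors deposited the scanner's intensity values (software per the file headers: Agilent Feature Extraction, version 11.0.1.1) with the background subtracted, and a quantile-normalised intensity table, which was used as an alternative. The design build of the headers is not that of the RefSeq table, which was used for names and promoters.

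From the scanner files, 1417 control spots of 43553 were left out, and the log2 processed signals of 42136 spots were quantile normalised. Outlier spots were set missing and spots of a probe averaged, which gave 24684 probes. Groups were compared with limma 3.58.1 in R 4.3.3, with Benjamini-Hochberg adjustment over all probes and two-sided exact permutation tests over 462 splits. Python 3.11.15 and matplotlib 3.10.9 were used for promoters and figures. The scripts were tested on simulated data.

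The alternatives were other scalings and background corrections (on the median signal, since the files used here hold no mean signal), a floor of 10, a filter on dim probes, the rat, slide or scan day as a block, the row trend removed, and leaving out each array. Rat numbers mark the same animal in the labels. After removal of group means the sides of a rat correlated at -0.084 to 0.132. The correlation that limma estimated between arrays of the same slide was 0.427, and that between the sides of a rat was -0.023. Most slides held a single group. The p-values of the fit without a block and of the permutation test over all splits treat the arrays as independent. The spread that they measure therefore mixes differences between slides with those between ganglia. The number of arrays also limits the precision.

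The genes named were the 9 genes of the set, the genes of the pathway list past the threshold in each direction or else the one with the smallest p, and the 3 most similar genes of each detected gene, of which 1 is not reported here. A gene was represented by its probe with the highest mean signal. The members and lists were chosen with earlier results of these data known. Lists of cell markers for satellite glia, Schwann cells, neutrophils, T cells, B cells, dendritic cells, endothelial cells, fibroblasts, red blood cells and skeletal muscle had median log2 changes of -0.04, 0.03, 0.47, -0.13, -0.04, 0.00, -0.14, -0.01, -0.22 and -0.19, and those for sensory neurons and anterior pituitary 0.05 and 0.14.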

Additional observations from a re-analysis of the deposited data

Results flagged for a closer look

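The contralateral array of rat 3 had a Tlr3 value of 8.15, far from the other 4 contralateral arrays, the nearest of which was at 8.76. The gap was 0.769 of the range of the group. Of 20 groups of arrays examined this was the only one with such a gap, and chance gives about 1 in 20.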

How the results depend on the processing

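No gene of the set passed the study's threshold under any of the alternatives, and 1 (Myd88) passed when only an unadjusted p of 0.05 was asked. The rat as a replicate block left 372 probes past the threshold and changed no call at that threshold, with Tlr4 at -0.08. At an unadjusted p of 0.05 alone it lost Myd88 (0.059) and gained Tlr6 (0.0275). CFA rat 8, which has no contralateral array, adds nothing to the difference in that fit. Leaving CFA rat 8 out without a block gave the same log2 changes, -0.30 for Myd88 and -0.33 for Tlr6. The log2 change of Tlr4 was also below 0 with normexp (-0.03) or no background correction (-0.03), the row trend removed (-0.12), the slide as a fixed (-0.67) or random block (-0.18) and the scan day as a block (-0.63), and was -0.11 to 0.13 when each array was left out. That of Cd14 turned with 75th percentile scaling (0.04), normexp (0.05), no background correction (0.04), the row trend removed (0.04), the authors' table (0.00) and single arrays left out (-0.12 to 0.15), and was -0.84 with the scan day as a block, and that of Tlr7 with the row trend removed (0.03) and single arrays left out (-0.28 to 0.02). Tlr2, Tlr3, Tlr6 and Myd88 kept their sign under all 26 alternatives, and Myd88 had an unadjusted p of 0.05 or less in 16. The count of probes past the threshold was 16 with normexp, 47 without background correction, 192 with a floor of 10, 228 with the slide as a random block and 328 (without contralateral rat 1) to 796 (without contralateral rat 6) when each array was left out. An adjusted p of 0.05 was passed by 69 probes with the slide and 35 with the scan day as a fixed block, and by 121 without CFA rat 1. The pathway count of 1 was 0 with normexp, without background correction and with the slide as a fixed or random block, and 0 to 2 when each array was left out. With the scan day as a block, which rests on CFA rat 1, Il12b was at -0.33, under the fold limit, and Nos2 was at -2.34. The Nos2 signal was 1.11 on CFA rat 1, not well above background. It was also not well above background on contralateral rats 5 and 6 (3.15 and 2.05). With the row trend removed and the slide as a random block, a setting chosen after seeing the data, 203 probes and 0 pathway genes passed and Tlr4 was at -0.30. The cause of these shifts was not tested. No gene of the set has another probe, so the alternative with other probes was not run.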
